A study of Mus musculus with 34 samples.

Results

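The comparison set the hearts of vehicle-instilled mice taken on day 3 against those taken on day 1, across all genes measured. The arrays were chosen by their labels alone, as the 6 arrays of control day 3 and the 6 of control day 1, which made 12 of the 34 arrays of the series. The series measured heart RNA of female C57BL/6 mice after an instillation into the trachea of Printex 90, a carbon black nanoparticle, or of the vehicle, on days 1, 3 and 28. Each two-colour microarray carried the RNA of 1 mouse in Cy5 and a Universal Mouse Reference RNA in Cy3, so the arrays of a group are separate animals. The tissue was a section of heart taken at random that held both ventricles.

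Control day 3 and control day 1 mice shared strain, sex, supplier (Taconic), age on arrival of 5 to 6 weeks and treatment, and differed in the day of collection. Their label is vehicle control with a dose of 0 µg. Per the labels' protocols the particles were suspended in MilliQ water with 0.9% NaCl, to which acellular lavage fluid from the lungs of other C57BL/6 mice had been added at 10% by volume. A volume of 40 µl was instilled and followed by 150 µl of air. Carbon black mice, which serve here for comparison, received 162 µg and gave 5 arrays on day 3 and 6 on day 1. The 6 arrays of control day 28 are used only for levels. No heart of a mouse without instillation was analysed here, and the hour of collection is not given in the sources used here, so the passage of days after instillation, the recovery from handling and the hour cannot be told apart.

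A heart section holds ventricular cardiomyocytes, which carry most of its contractile RNA, together with endothelial cells, fibroblasts, pericytes, resident macrophages and, at its edges, atrium, fat and pleura. Handling and anaesthesia act on the heart through catecholamines and corticosteroids, and the genes known to answer fastest are immediate early genes such as the Nr4a receptors and glucocorticoid targets such as metallothioneins. The heart also keeps a circadian clock, whose output genes such as Dbp swing strongly over a day.

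Over the 34 arrays the share of sample-channel spots with a signal clearly over background ranged from 42.8% to 66.6%, and none was saturated. Of 41174 probes, 25249 passed a filter on dim probes and represented 19798 genes, 12347 of them named. All 17 ventricular cardiomyocyte markers passed the filter. Myl2, the ventricular regulatory light chain, had log2 ratios of heart over reference from 1.88 to 5.31 on day 3 and from 4.54 to 5.57 on day 1. Day 3 replicate 5 was the low one and went against the ventricular label for Myl2, with a log2 sample-channel signal of 7.93, against 14.39 to 17.94 in the other day 3 hearts and 14.08 to 18.41 on day 1. Its Irx4, a ventricular homeobox factor, and its Myl3, another ventricular light chain, were also the lowest of the 12 arrays in that channel. Myl3 had 12.08 there, against 13.41 to 18.32 on the other 11 arrays. Myh6, the alpha myosin heavy chain, was the lowest too but closer to the others, with 15.85 against 16.18 to 17.92. Some arrays also carried transcripts of other tissues. The section scored low for atrial markers in day 3 replicate 4 and in day 1 replicate 2, airway markers were high in day 3 replicates 1, 5 and 6, and liver markers were high in day 3 replicates 5 and 6. Results are therefore also given without those arrays.

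The Cy3 channel held the same reference RNA on every array, yet its signal moved with the Cy5 signal at spots that varied strongly. In 284 genes the sample-channel signal ranged over 4 or more on the log2 scale across the 12 arrays. In these the median range was 5.32 in the sample channel and 1.16 in the reference channel, against a median reference range of 0.457 over all genes. Alb, the main plasma protein, had a log2 reference signal of 12.54 in day 3 replicate 5 and 6.20 in replicate 2, where its sample signals were 17.82 and 6.21. At such spots a difference in the ratio is therefore smaller than, or can even oppose, the difference in the sample channel. The cause was not tested, and all differences below are of the ratio unless the sample channel is named.

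No gene passed an adjusted p of 0.05 in limma between day 3 and day 1, and the smallest adjusted p was 0.9995. At an unadjusted p under 0.05 there were 405 genes, or 2.05% of those tested. Of these, 275 were higher on day 3 (1.39%) and 130 were lower (0.657%), where 989.9 would be expected if no gene differed. The median difference over all genes was -0.01 on the log2 scale, and 47.8% of genes lay above 0.

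The comparison set 6 mice against 6, but its SE, intervals and p-values took each gene's spread from all groups of the fit. They are therefore not those of these mice alone. In Bpifa1, an airway gene, the SD was 2.41 on day 3 and 0.14 on day 1, which a shared spread does not describe. With only the arrays compared, 173 genes had an unadjusted p under 0.05 in limma, against 405 in the main fit. The median standard error of a gene's difference was 0.149 on the log2 scale, and the median 95% interval reached 0.304 to either side. For 18727 genes (94.6%) the whole interval lay within 1 on the log2 scale in both directions. The median SD of a gene between mice was 0.267 on day 3 and 0.236 on day 1, against 0.228 on control day 28, and 57.9% of genes had the larger SD on day 3. In 38 genes the difference was 1 or more, and all 38 were higher on day 3.

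**Figure D1:**
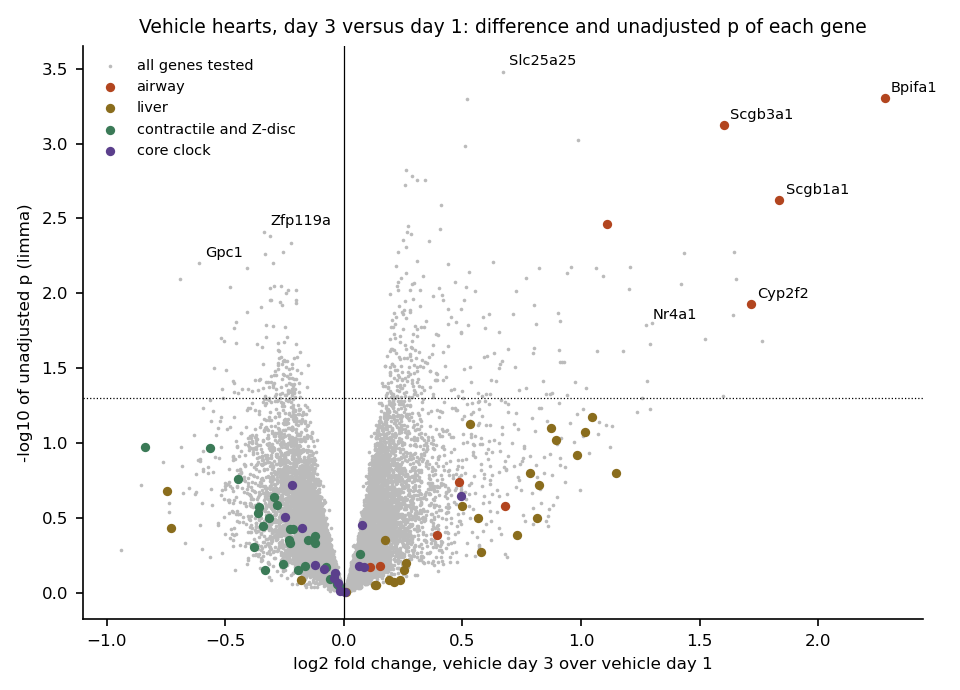
Difference of each of the 19798 genes, day 3 minus day 1 in vehicle hearts (log2, horizontal axis), against −log10 of its unadjusted p (vertical axis), with a point for each gene, 4 gene lists in colour and a dotted line at an unadjusted p of 0.05. No gene passed the adjusted threshold, and the points beyond 1 on the horizontal axis all lie on the day 3 side.

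The 6 named genes of smallest p with higher ratios on day 3 were Slc25a25, Bpifa1, Scgb3a1, Cdh1, Ces2a and Tmem150b. None passed the adjusted threshold, and their adjusted p in limma was 0.9995. Slc25a25, a carrier of ATP-Mg and phosphate in the inner mitochondrial membrane, had a lowest, median and highest log2 ratio of -0.95, -0.21 and 0.27 on day 3 and of -1.25, -0.90 and -0.62 on day 1. Of the 6 day 3 hearts, 5 lay above every day 1 heart, and the exception was replicate 3 with the lowest value on day 3. The difference was 0.67 ± 0.17 (SE). It was 0.59 without replicates 1, 5 and 6, and 0.54 in the sample channel alone. Replicate 2, which held the highest ratio, had a log2 reference signal of 8.415. On the other vehicle arrays of these days that signal was 9.045 to 9.384. The other probes for Slc25a25 gave 0.63 and 0.11, so the probes do not all show a difference of this size. On control day 28 the mean ratio was -0.45, between those of the other days.

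Bpifa1, which encodes a secreted defence protein of the upper airways, had the largest difference of any gene in the ratio. Its lowest, median and highest ratios were 0.02, 2.24 and 4.78 on day 3 and -0.11, 0.10 and 0.24 on day 1. Day 3 replicates 1, 5 and 6 had 4.74, 4.07 and 4.78, while the other 3 day 3 hearts lay at or below 0.42, close to the day 1 range. The difference was 2.28 ± 0.59, and 0.10 without those replicates. The spot was not well above background on any day 1 array and was so on 4 day 3 arrays. In the sample channel alone the mean log2 signal was 9.28 on day 3 and 6.24 on day 1. Against the lowest signal measurable on day 1 the day 3 mean of that channel was at least 7.51-fold higher. This bound exceeds the fold of the ratio because the reference signal, 6.93 on day 3 and 6.17 on day 1, enters only the ratio. The bounds given here are all of the sample channel and are open to dye bias because no dyes were swapped.

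Scgb3a1, a secretoglobin of airway secretory cells, had a lowest, median and highest ratio of 0.30, 2.24 and 4.20 on day 3 and of 0.44, 0.71 and 1.03 on day 1. Replicates 1, 5 and 6 stood above every day 1 heart, and replicate 4 was the lowest of all 12. The difference was 1.60 ± 0.43, and 0.05 without replicates 1, 5 and 6. Cdh1, the adhesion protein E-cadherin of epithelia, ran from -0.35 through 0.51 to 2.30 on day 3 and from -0.46 through -0.27 to -0.19 on day 1. The same replicates were the 3 highest for Cdh1, and without them its difference of 0.99 ± 0.27 was 0.01. Cdh1 was well above background on 3 day 3 arrays and on no day 1 array, which gave a day 3 sample-channel mean at least 1.78-fold higher.

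Ces2a, a carboxylesterase, had a lowest, median and highest ratio of 0.13, 0.30 and 1.43 on day 3 and of -0.25, -0.11 and 0.25 on day 1. Replicate 5 alone exceeded 1, and 3 day 3 hearts lay above every day 1 heart. The difference was 0.51 ± 0.14, and 0.23 without replicates 1, 5 and 6. Tmem150b, a membrane protein of the family of autophagy modulators, ran from -0.01 through 0.14 to 0.23 on day 3 and from -0.34 through -0.11 to 0.01 on day 1. Of the 6 day 3 hearts 5 lay above every day 1 heart, with a difference of 0.26 ± 0.08. A second Tmem150b probe, too dim to pass the filter, gave 0.10.

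The 6 named genes of smallest p with lower ratios on day 3 were Gpc1, H1f2, Zfp119a, Rcan3, Mrgpre and Olfr282, and none passed (adjusted p in limma 0.9995). Gpc1, the heparan sulfate proteoglycan glypican 1, had a lowest, median and highest ratio of 0.61, 1.67 and 1.88 on day 3 and of 1.80, 2.15 and 2.57 on day 1. On day 3, replicate 6 was the lowest and 4 hearts lay under every day 1 heart. The difference was -0.61 ± 0.21, and -0.39 without replicates 1, 5 and 6.

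H1f2, a linker histone, was 1.24, 1.43 and 1.58 at its lowest, median and highest on day 3 and 1.47, 1.69 and 2.22 on day 1. Of the day 3 hearts 5 lay under every day 1 heart, and the high end of day 1 was held by replicates 3 and 5. The difference was -0.41 ± 0.14, and it was -0.43 without day 3 replicates 1, 5 and 6. H1f2, chosen by its p on these same arrays, was lower on day 3 within each of the 5 scan days that held both groups.

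Rcan3, a regulator of the phosphatase calcineurin, had a lowest, median and highest ratio of -0.65, -0.15 and 0.09 on day 3 and of -0.06, 0.14 and 0.36 on day 1. The low values were those of replicates 1 and 5, and 4 day 3 hearts lay under every day 1 heart. The difference was -0.33 ± 0.11, whereas a second Rcan3 probe gave -0.04. Zfp119a, a zinc finger protein, ran from -0.71 through -0.17 to 0.08 on day 3 and from -0.19 through 0.09 to 0.35 on day 1. On day 3 the values were low in replicates 4, 5 and 6 and near 0 in the others. The difference for Zfp119a was -0.34 ± 0.11, and -0.06 without replicates 4, 5 and 6.

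Mrgpre, a Mas-related G protein-coupled receptor, ran from -0.56 through -0.34 to -0.06 on day 3 and from -0.38 through 0.03 to 0.14 on day 1. The ranges overlapped, and 3 day 3 hearts lay under every day 1 heart. The difference was -0.26 ± 0.09, and -0.08 without replicates 1, 5 and 6. Olfr282, an olfactory receptor gene, ran from -0.23 through -0.04 to 0.14 on day 3 and from 0.08 through 0.15 to 0.44 on day 1. Of the day 3 hearts 5 lay under every day 1 heart, and replicate 6 was the exception. The difference was -0.23 ± 0.08, on a probe well above background on 1 day 3 array and 3 day 1 arrays.

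**Figure D2:**
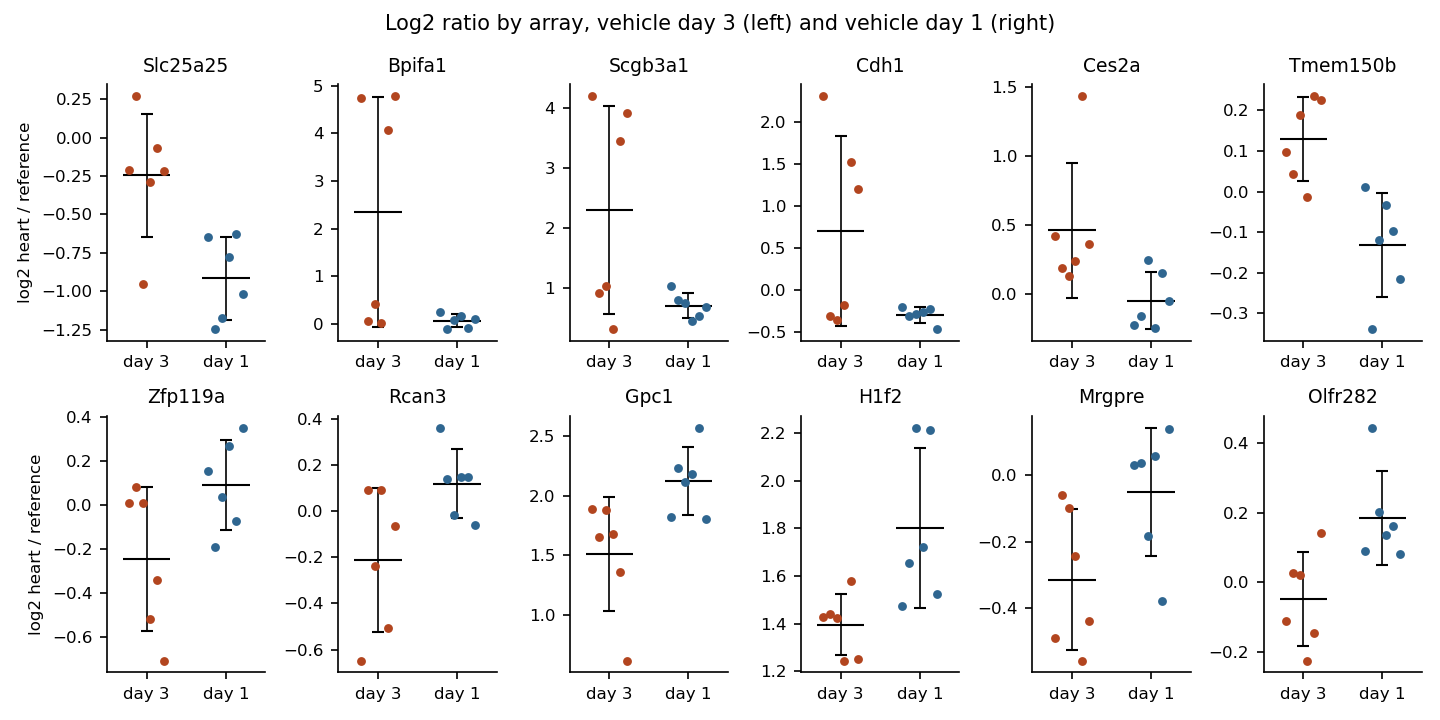
Log2 ratio of heart over reference (vertical axis) of the 12 named genes of smallest p in each of the 6 day 3 and 6 day 1 vehicle hearts, with a point for each array and lines at the group mean ± SD. Bpifa1, Scgb3a1 and Cdh1 are high in 3 day 3 hearts, while Slc25a25 is higher in 5 of 6 day 3 hearts than in any day 1 heart.

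The 2 groups did not overlap at all in 7 genes, each higher on day 3 (0.0354% of genes), and in no gene lower on day 3. The named ones were Atp6v1g2, Cblc, Tap2 and Tut1, singled out after their values were seen, and the other 3 are known by accession or clone only. Their differences were small, and the number of genes expected to separate in this way if none differed was not computed. Cblc, an E3 ubiquitin ligase, had ratios from 0.04 to 0.38 on day 3 and from -0.14 to 0.03 on day 1, a difference of 0.29. Tap2, which helps carry peptides to MHC class I, lay between -0.33 and -0.08 on day 3 and between -0.56 and -0.33 on day 1, a difference of 0.22. The gap between the groups in Tap2 was within rounding. Atp6v1g2, a subunit of the vacuolar proton pump, differed by 0.21, and Tut1, a terminal uridylyltransferase of U6 RNA, by 0.19.

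Airway genes formed the list with the largest median difference. Of 18 airway markers on the array, 10 passed the filter, and all 10 were above 0 with a median of 0.89. Among them 5 had an unadjusted p under 0.05, where 1.39% of all genes did so on the higher side. Members that passed only through the group where they are high had to differ, so this count is a description. The markers Sftpb, Sftpa1, Sftpd, Bpifb1, Ager, Foxj1, Muc5b and Chil4 were too dim to pass. Scgb1a1, the main secretoglobin of club cells, had a lowest, median and highest ratio of 0.11, 1.58 and 5.84 on day 3 and of 0.11, 0.28 and 0.49 on day 1. Replicate 1 held the highest Scgb1a1 value and replicates 5 and 6 had 2.88 and 3.50, while the other day 3 hearts overlapped day 1. The difference was 1.84 ± 0.56, and -0.11 without those replicates.

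The other airway markers showed the same arrays in different proportions. Cyp2f2, a cytochrome P450 of club cells that the liver also expresses, had 3.52, 4.59 and 4.49 in replicates 1, 5 and 6, and between -0.65 and 1.22 in the other day 3 hearts, against -0.30 to 1.52 on day 1. Its difference was 1.72 ± 0.64. Reg3g, an antimicrobial lectin, had its highest value of 3.77 in replicate 6 and did not exceed 0.31 on day 1. It differed by 1.11 ± 0.35, and its day 3 mean in the sample channel was at least 2.27-fold higher than the day 1 limit.

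Markers of the deeper lung were high in fewer hearts. Sftpc, the surfactant protein of alveolar type II cells, was 2.87 in day 3 replicate 1 and lay between -0.06 and 0.05 in the other 5 day 3 hearts, against -0.05 to 0.25 on day 1. In replicate 1 the log2 signals were 15.62 in the sample channel and 12.75 in the reference channel, and on the other 11 arrays both lay between 6.02 and 6.33. Its difference was 0.39 ± 0.47 in the ratio. The sample-channel bound of at least 2.70-fold rests on that replicate alone. Napsa, a protease of the same cells, was 0.69 in replicate 1 and -1.14 in replicate 5, and had a difference of 0.68 ± 0.60. Aldh1a1 (0.48 ± 0.35), Lyz1 (0.15 ± 0.34) and Slc34a2 (0.11 ± 0.25) completed the 10.

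The mean airway score, taken as the average deviation of the 10 markers from their medians over all arrays, was 2.61, 1.75 and 1.93 in day 3 replicates 1, 5 and 6. It lay between -0.13 and -0.02 in the other day 3 hearts and between -0.18 and 0.18 on day 1. Without those 3 replicates the median of the airway list was -0.03, and in the sample channel over all arrays it was 1.40. In bulk tissue, fewer cells of a type and less RNA per cell cannot be told apart, and the part of airway RNA in any other difference was not tested.

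**Figure D3:**
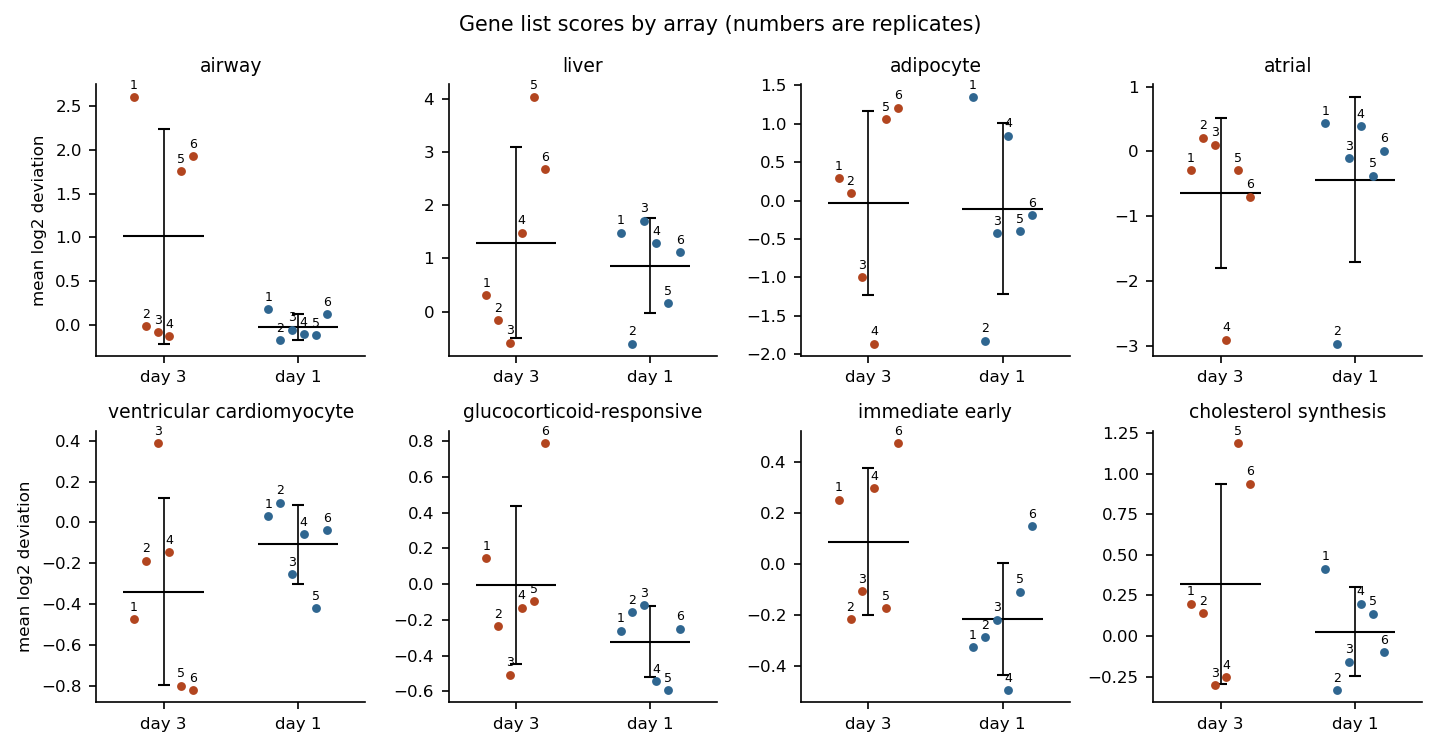
Mean score of 8 gene lists (vertical axis, average log2 deviation from the median of all arrays) in each of the 6 day 3 and 6 day 1 vehicle hearts, numbered by replicate, with lines at the group mean ± SD. The airway score is 1.75 or more in 3 day 3 hearts and at most 0.18 on day 1, and the liver score spreads widely on both days.

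The 38 genes with a difference of 1 or more were read off the same arrays. The highest of the 12 ratios was in day 3 replicate 5 for 27 of them, in replicate 6 for 6 and in replicate 1 for 5. Of the 38, 25 had an unadjusted p under 0.05, 5 stood in the airway list and 3 in the liver list. Without replicates 1, 5 and 6 only 1 of the 38 kept a difference of 1 or more, namely Nr4a1 with 1.07, and without replicates 4, 5 and 6 there were 6. With those arrays left out, other genes reached this size, since 41 genes lay at 1 or more in either direction without replicates 1, 5 and 6, and 38 without 4, 5 and 6. In the sample channel alone 69 genes were at 1 or more and 1 at -1 or less. Among the genes of this size that stand in none of the lists, chosen after their values were seen, were Cyp2a4 (1.76), a steroid hydroxylase, Hc (1.52), complement C5, Mat1a (1.29), the methionine adenosyltransferase of the liver, and Arg1 (1.20), the urea cycle arginase. Mal2 (1.43), a protein of epithelial membrane transport, and Wfdc2 (1.42), a secreted protease inhibitor of airway epithelium, belonged to the same group.

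Liver-expressed genes lay mostly above 0 but with a wide spread between mice. Of 26 liver markers past the filter 23 were above 0, with a median of 0.52, and none had an unadjusted p under 0.05. Alb was 0.02, 3.85 and 5.28 at its lowest, median and highest on day 3 and 1.92, 4.03 and 4.61 on day 1, a difference of -0.73 ± 0.80. In the sample channel its mean was 11.44 on day 3 and 10.66 on day 1, so the direction of the Alb difference turned to 0.78 there. Day 3 replicates 2 and 3 held next to no Alb signal over the reference, and replicates 4, 5 and 6 were the highest. Serpina3k, a liver serpin, was 0.19, 1.01 and 7.14 on day 3 and 0.24, 1.40 and 2.65 on day 1, a difference of 1.15 ± 0.79, with a second probe at 0.69. The high values were 7.14 in replicate 5 and 5.31 in replicate 6.

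The liver score was 4.04 in day 3 replicate 5, 2.67 in replicate 6 and 1.48 in replicate 4, and it was 0.30, -0.16 and -0.58 in replicates 1, 2 and 3. On day 1 it ran from -0.60 to 1.71. Without replicates 1, 5 and 6 the liver median was -0.59, and without 4, 5 and 6 it was -0.82, so its side of 0 rests on those hearts. In the sample channel the liver median was 0.92 and all 26 were above 0. Large liver differences after Serpina3k included Cyp3a11 (1.05 ± 0.55), Hpx (0.98 ± 0.62), Apoa1 (0.90 ± 0.52) and Vtn (0.87 ± 0.48). Apoh and Gc were each 0.82, Cyp2c29 was 0.79, Fgg 0.73, Rbp4 0.58, Trf 0.56, Tdo2 0.53 and Apoc3 0.50. Ahsg, Apoa2, Mup1, Hp, Ambp, Itih4, Apoc1, Cyp2e1 and Fabp1 lay between 0.01 and 0.26, while Fgb was -0.18 and Serpina1d was -0.75.

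Acute phase genes, which answer to inflammation, were above 0 in 17 of 20, with a median of 0.21 and none at an unadjusted p under 0.05. The metallothioneins Mt2 (0.50 ± 0.28) and Mt1 (0.27 ± 0.16), the haem carrier Hpx (0.98 ± 0.62) and Apcs (0.21 ± 0.14) had the smallest p. Without replicates 1, 5 and 6 the acute phase median was -0.11. Coagulation genes had 11 of 23 above 0 and a median of 0.00, with F7 at 0.50 ± 0.25 and F10 at 0.69 ± 0.43.

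Genes that answer to stress hormones and to stimulation lay on the day 3 side in most members without passing. Of 21 glucocorticoid-responsive genes, 18 were above 0 and the median was 0.36. Errfi1, a feedback inhibitor of the EGF receptor, was -2.29, -1.31 and 0.40 at its lowest, median and highest on day 3 and -2.43, -2.15 and -1.76 on day 1. Replicates 1, 5 and 6 stood above every day 1 heart and the other 3 lay within the day 1 range. The Errfi1 difference was 0.91 ± 0.45, and -0.08 without those replicates.

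Cdkn1a, the cell cycle inhibitor p21, had a difference of 0.47 ± 0.24, with its highest value of 0.01 in day 3 replicate 6 and a day 1 range from -1.90 to -1.33. The glucocorticoid score was 0.79 in replicate 6, 0.15 in replicate 1 and between -0.51 and -0.10 in the other day 3 hearts, against -0.59 to -0.12 on day 1. Without replicates 1, 5 and 6 the list median was 0.02. The airway score was also high in the same replicates, and its part in the glucocorticoid values was not tested.

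Immediate early genes were above 0 in 20 of 23, with a median of 0.27 and 2 members at an unadjusted p under 0.05. Nr4a1, an orphan nuclear receptor induced within the hour by catecholamines, was -0.88, 0.45 and 1.94 at its lowest, median and highest on day 3 and -1.64, -0.61 and 0.14 on day 1. Replicates 1, 4 and 6 lay above every day 1 heart and the other 3 lay within the day 1 range. The difference was 1.27 ± 0.50, and 1.07 without replicates 1, 5 and 6.

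Nr4a2, its relative, was -0.37, -0.15 and 1.17 on day 3 and -0.96, -0.36 and -0.06 on day 1, with a difference of 0.59 ± 0.23. Only replicates 4 and 6 exceeded every day 1 heart. Klf4, a zinc finger factor, differed by 0.38 ± 0.22 and Zfp36, which destabilises mRNA, by 0.39 ± 0.23, and a second Zfp36 probe gave 0.10. With the slide fitted as a block the median of the immediate early list was -0.02.

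Genes of cholesterol synthesis and uptake, which the factor SREBP2 drives, were above 0 in 26 of 28 with a median of 0.27, and 2 members had an unadjusted p under 0.05. Fdps, farnesyl diphosphate synthase, had a difference of 0.29 ± 0.14.

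Sqle, squalene epoxidase, ran from -3.88 to -1.56 on day 3 and from -3.80 to -3.09 on day 1, with 4 day 3 hearts above and 2 below the whole day 1 range, and its difference was 0.54 ± 0.31. Acacb, an acetyl-CoA carboxylase of fatty acid metabolism, had 0.26 ± 0.14. The cholesterol score was 1.19 and 0.94 in day 3 replicates 5 and 6, which also had the highest liver scores, and lay between -0.30 and 0.20 in the others, against -0.33 to 0.42 on day 1. Without replicates 1, 5 and 6 the median was -0.05.

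Cardiomyocyte genes lay on the day 1 side. All 17 ventricular markers were below 0 with a median of -0.19, and 26 of 27 genes of the contractile apparatus and Z-disc were below 0 with a median of -0.23. None had an unadjusted p under 0.05. Myl2 had a lowest, median and highest ratio of 1.88, 4.98 and 5.31 on day 3 and of 4.54, 5.41 and 5.57 on day 1. Replicate 5 was far under the rest, and replicates 4 and 5 lay under every day 1 heart in the ratio. In the sample channel replicate 4 was instead the highest day 3 heart, at 17.94. Its reference signal of 13.68 was the highest of the vehicle arrays of these days. The Myl2 difference was -0.84 ± 0.50, and -0.36 without replicates 1, 5 and 6.

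Myh6, the alpha myosin heavy chain of the adult mouse ventricle, was 2.86, 3.79 and 4.64 on day 3 and 3.24, 4.25 and 4.88 on day 1. Its difference was -0.36 ± 0.32, and 0.18 without replicates 1, 5 and 6. Ankrd1, a stretch-responsive protein of the sarcomere, had -0.56 ± 0.34, Tpm1 -0.44 ± 0.32 with a second probe at 0.00, Des -0.29 ± 0.24, Cox6a2 -0.31 ± 0.21 and Myl3 -0.36 ± 0.34 with a second probe at -0.61. The ventricular score was -0.47, -0.80 and -0.82 in replicates 1, 5 and 6 and between -0.19 and 0.39 in the other day 3 hearts, against -0.42 to 0.10 on day 1. The hearts with airway transcripts thus had the lowest ventricular scores of the 12, and without them the medians were 0.15 for the ventricular and 0.15 for the contractile list.

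Calcium handling genes were above 0 in 9 of 33 with a median of -0.10. Their leading members were the kinase Camk2d (-0.34 ± 0.26), the channel subunit Cacnb2 (-0.51 ± 0.40), the gap junction protein Gja1 (-0.35 ± 0.28) and the potassium channel Kcnh2 (-0.30 ± 0.25). The other probes for Camk2d gave -0.01 and -0.13, and that for Cacnb2 gave -0.01. Respiratory chain genes were above 0 in 6 of 42 with a median of -0.08, and Atp5j, a coupling factor of ATP synthase, had -0.52 ± 0.28, Cox7a1 had -0.26 ± 0.20 and Atp5o had -0.20 ± 0.18. Without replicates 1, 5 and 6 the calcium handling median was 0.18 and the respiratory chain median 0.12.

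Natriuretic and vasoactive genes had 10 of 26 above 0 and a median of -0.05. Nppb, the B-type natriuretic peptide of stretched ventricle, was 4.66, 5.14 and 5.58 at its lowest, median and highest on day 3 and 5.14, 5.66 and 6.62 on day 1. In the ratio, replicates 2, 5 and 6 lay under every day 1 heart. In the sample channel replicates 3, 5 and 6 did so. Replicate 2 had 13.53 there and replicate 3 had 12.46, against a lowest day 1 signal of 12.97. The Nppb difference was -0.63 ± 0.50, with a second probe at -0.61. Adm, adrenomedullin, had -0.56 ± 0.43, Adrb1 -0.21 ± 0.16 and Adra1a 0.18 ± 0.12.

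All 12 atrial markers were below 0 with a median of -0.13, and 1 heart of each day stood far under the rest. The atrial score was -2.90 in day 3 replicate 4 and -2.96 in day 1 replicate 2, and lay between -0.70 and 0.43 in the other 10 hearts. Myl1 had -0.61 ± 0.64, Nppa, the atrial natriuretic peptide, -0.19 ± 0.20, Bmp10 -0.67 ± 0.90 and Kcnj3 -0.20 ± 0.45. Without day 1 replicate 2 and day 3 replicate 4 the atrial median was -0.25. Fat cell markers were above 0 in 13 of 24 with a median of 0.10 and scores from -1.86 to 1.21 on day 3 and from -1.82 to 1.35 on day 1. Cox7a1 (-0.26 ± 0.20), Aqp7 (0.43 ± 0.36), Dio2 (0.62 ± 0.63) and Lipe (0.26 ± 0.37) had the smallest p in that list. Ucp1, the uncoupling protein of brown fat, had -0.94 ± 1.43, the lowest difference of all genes tested, and is named here after its value was seen. In the sample channel 21 of 24 were above 0 with a median of 0.40.

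The circadian genes had medians near 0 but differed widely between mice of the same day. Of 14 core clock genes 5 were above 0 with a median of -0.03, and of 13 clock output genes 7 were above 0 with a median of 0.01. None had an unadjusted p under 0.05. Arntl, the clock activator BMAL1, was 1.21, 1.60 and 1.58 in day 3 replicates 1, 2 and 3 and 0.09, -0.11 and 0.21 in replicates 4, 5 and 6. On day 1 it was 0.81, 0.92, 0.51, 1.01, 0.04 and 1.40 in replicates 1 to 6. The day 3 hearts therefore held both the highest and the lowest Arntl values of the 12, with no value between 0.21 and 1.21, and the difference was -0.02 ± 0.34.

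Dbp, an output factor that peaks in antiphase to Arntl, was -0.44 and -0.71 in day 3 replicates 1 and 2, lower still in replicate 3, and 0.55, 1.19 and 0.07 in replicates 4, 5 and 6. On day 1 it ran from -0.35 through 0.63 to 1.44. Dbp was thus low on day 3 in the 3 hearts where Arntl was high, and the difference of the means was -0.59 ± 0.36. Per1, a clock repressor that glucocorticoids also induce, was 0.63, -1.45, -1.31, 1.28, -0.27 and 1.14 in day 3 replicates 1 to 6, and ran from -1.29 to 0.28 on day 1. The Per1 difference was 0.49 ± 0.40, with 3 day 3 hearts above and 2 below the day 1 range.

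Nfil3, a repressor of Dbp targets, differed by 0.44 ± 0.24, with a second probe at 0.47. The remaining core genes lay closer to 0. Cry2 had -0.22 ± 0.16, Nr1d2 -0.25 ± 0.24, Nr1d1 -0.18 ± 0.19 and Per2 -0.12 ± 0.26, and other probes for Nr1d1 gave 0.02 and -0.08 one for Per2 gave 0.20 and a dim one for Cry2 gave -0.03. Npas2, Clock, Csnk1d, Rora, Per3 and Csnk1e lay between -0.08 and 0.09.

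Among the output genes Por had 0.34 ± 0.28, Tef -0.23 ± 0.28, Klf15 -0.24 ± 0.37, Bhlhe40 0.15 ± 0.24 and Lgals12 0.33 ± 0.59. Usp2, Ciart, Hlf, Bhlhe41, Tspan4 and Nampt lay between -0.09 and 0.02. The clock output score had an SD of 0.36 on day 3 and 0.15 on day 1. Whether the hearts of a group were collected at different hours is not given in the sources used here.

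**Figure D4:**
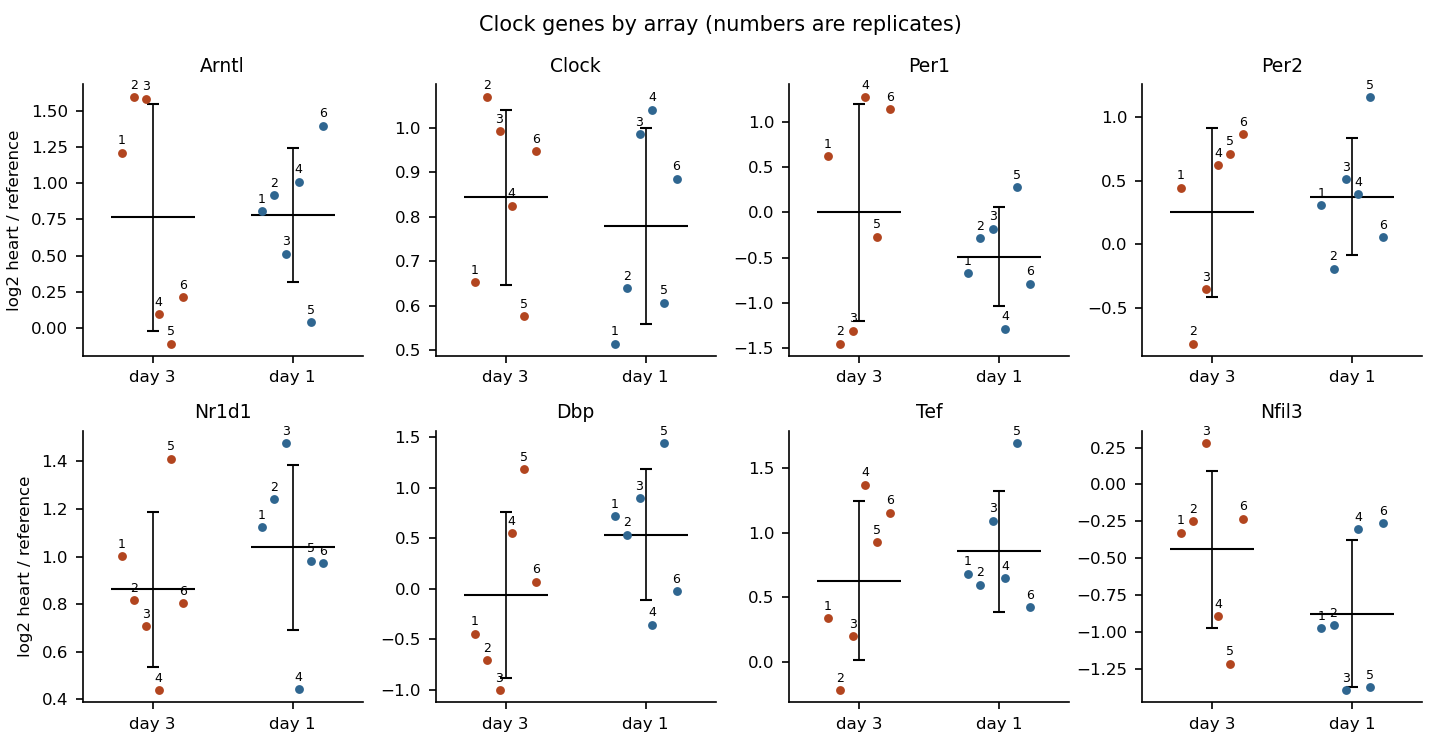
Log2 ratio of heart over reference (vertical axis) of 8 clock and clock output genes in each of the 6 day 3 and 6 day 1 vehicle hearts, numbered by replicate, with lines at the group mean ± SD. Day 3 replicates 1, 2 and 3 have Arntl at 1.21 or more and Dbp at -0.44 or less, while replicates 4, 5 and 6 have Arntl at 0.21 or less and Dbp at 0.07 or more.

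Genes of the immune response had list medians between -0.04 and 0.27. Interferon-responsive genes were above 0 in 23 of 27 with a median of 0.10, led by the protease Usp18 (0.35 ± 0.21), the immunoproteasome subunit Psmb8 (0.32 ± 0.22, other probe 0.12), Ifitm3 (0.26 ± 0.18) and Bst2 (0.25 ± 0.19). Chemokines and cytokines were above 0 in 18 of 28 with a median of 0.05. Cxcl9, a chemokine induced by interferon gamma, ran from 0.91 through 1.67 to 2.43 on day 3 and from 0.45 through 1.17 to 1.39 on day 1. Of the day 3 hearts 4 lay above every day 1 heart, with a Cxcl9 difference of 0.57 ± 0.28. Cx3cl1 (0.23 ± 0.13), Spp1 (0.41 ± 0.29) and Il6 (-0.19 ± 0.16) followed.

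MHC class II genes, expressed by antigen-presenting cells, were above 0 in 8 of 9 with a median of 0.27, among them H2-Aa (0.53 ± 0.46), Cd74 (0.39 ± 0.42), H2-DMa (0.31 ± 0.27) and their activator Ciita (0.30 ± 0.36). T and B lymphocyte markers were above 0 in 11 of 14 with a median of 0.15, with Cd5 at 0.32 ± 0.30, Cd3d at 0.31 ± 0.33, Ccl5 at 0.25 ± 0.35 and Nkg7 at 0.14 ± 0.26. Macrophage markers were above 0 in 10 of 22 with a median of -0.04 and all lay between -0.16 and 0.16, as did Cx3cr1 (-0.16 ± 0.16), Trem2 (-0.16 ± 0.19), Itgam and Aif1.

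Neutrophil markers were above 0 in 5 of 8 with a median of 0.06. Ltf, lactoferrin, which airway glands also secrete, was 4.24 in day 3 replicate 6, 1.14 in replicate 1 and 0.84 in replicate 5, and between -0.05 and 0.22 in the other day 3 hearts, against -0.15 to 0.09 on day 1. The high values fell in the hearts with a high airway score. The Ltf difference was 1.09 ± 0.38, with a day 3 mean at least 2.15-fold above the day 1 limit, and 0.10 without those hearts. Chil3, a chitinase-like protein of alveolar macrophages and myeloid cells, was 2.08 in day 3 replicate 1 and at or below -0.92 in each of the other 11 hearts, a difference of 0.31 ± 0.50. Mpo (-0.13 ± 0.12) and Mmp9 (0.12 ± 0.22) lay near 0.

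Stress pathways had medians near 0. In the integrated stress and unfolded protein response 8 of 23 were above 0 with a median of -0.04. Manf, a secreted factor of endoplasmic reticulum stress, was -2.05, -1.29 and -1.11 at its lowest, median and highest on day 3 and -1.25, -0.82 and -0.59 on day 1. Of the day 3 hearts 4 lay under every day 1 heart, with a Manf difference of -0.51 ± 0.21. Herpud1 (-0.25 ± 0.13), Hsp90b1 (-0.30 ± 0.21) and Vldlr (-0.30 ± 0.23) lay on the same side.

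Heat shock and chaperonin genes had 13 of 29 above 0 and a median of -0.02, with Hspa4l at -0.25 ± 0.13, Dnajb1 at 0.35 ± 0.20, Hspd1 at 0.22 ± 0.14 and Cct6a at -0.28 ± 0.20. Nrf2 and antioxidant genes had 19 of 28 above 0 and a median of 0.08, led by Srxn1 (0.24 ± 0.13, other probes 0.07 and -0.04), the glutathione synthesis subunits Gclc (0.36 ± 0.20) and Gclm (-0.22 ± 0.14), and Gsta3 (0.76 ± 0.46, other probe 0.31). Hypoxia genes had 5 of 19 above 0 and a median of -0.05, with P4ha1 at -0.29 ± 0.15, Ddit4 at 0.72 ± 0.48 and Vegfa at 0.17 ± 0.14, for which another probe gave -0.15. The p53 and DNA damage list had 13 of 23 above 0 and a median of 0.02, with Ccng1 at -0.39 ± 0.19, Plk3 at 0.35 ± 0.21 and Btg2 at 0.38 ± 0.28. Of 6 aryl hydrocarbon receptor genes 2 were above 0 and the median was -0.07, with Tiparp at 0.25 ± 0.24, Nqo1 at -0.22 ± 0.39, Cyp1b1 at -0.18 ± 0.37 and Arnt at -0.05 ± 0.09.

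Lists of protein synthesis, turnover and cell division had medians near 0. Cytosolic ribosome genes were above 0 in 15 of 38 with a median of -0.02. Rpl3, a protein of the large subunit, was -2.99, -2.19 and -1.84 at its lowest, median and highest on day 3 and -2.13, -1.78 and -1.23 on day 1. Replicates 1, 4 and 5 lay under every day 1 heart, and the Rpl3 difference was -0.55 ± 0.24. Day 3 minus day 1 was -0.27 for its sample signal and 0.28 for its reference signal, so the ratio shows more than the sample channel. Rplp0 (-0.12 ± 0.12), Rps14 (-0.25 ± 0.24) and Rps15 (0.13 ± 0.16) followed.

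Proteasome genes were above 0 in 10 of 31 with a median of -0.04 and all lay between -0.26 and 0.12. Psmd7, a lid subunit, had -0.26 ± 0.12 with a second probe at -0.29, and Psma5, Psmd11 and Psmc1 were -0.12, 0.12 and -0.09. Cell cycle genes were above 0 in 23 of 33 with a median of 0.05, among them Cdc20 (0.33 ± 0.16) and Birc5 (0.28 ± 0.18), which act in mitosis.

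Metabolic lists also had medians near 0. PPAR-alpha targets and genes of fatty acid oxidation were above 0 in 24 of 39 with a median of 0.04, led by the dehydrogenase Acads (0.53 ± 0.29), the uncoupling protein Ucp3 (0.76 ± 0.48) and the peroxisomal enzyme Ehhadh (0.48 ± 0.31). Glucose uptake and glycolysis genes were above 0 in 15 of 31 with a median of 0.00, with Pfkfb2 at -0.39 ± 0.30 and its other probes at -0.02 and -0.22, Gpi1 at 0.13 ± 0.11, Pgam2 at -0.24 ± 0.22 and Pdha1 at -0.31 ± 0.27, for which a second probe gave 0.11.

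Matrix genes were above 0 in 31 of 47 with a median of 0.04. Col4a2, a collagen chain of basement membranes, was 0.80, 1.04 and 1.27 at its lowest, median and highest on day 3 and 0.53, 0.67 and 1.39 on day 1. Every day 3 heart lay above 5 of the 6 day 1 hearts, and day 1 replicate 2 was the highest of the 12. The Col4a2 difference was 0.31 ± 0.14, its partner chain Col4a1 had 0.19 ± 0.16, and Sparcl1 had -0.36 ± 0.27 with a second probe at -0.12.

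The remaining cell types gave medians within 0.31 of 0. Fibroblast markers had 8 of 19 above 0 and a median of -0.04, with Cxcl14 (0.29 ± 0.21), Smoc2 (0.28 ± 0.22), Dpep1 (-0.30 ± 0.26) and Pi16 (0.27 ± 0.34). Endothelial markers had 9 of 21 and -0.04, with Rgcc (0.51 ± 0.40), Aqp1 (0.23 ± 0.20), Eng (-0.32 ± 0.28) and Cldn5 (0.41 ± 0.37). Smooth muscle and pericyte markers had 5 of 15 and -0.12, with Vtn, which also stands in the liver list, at 0.87 ± 0.48. Des was -0.29 ± 0.24, Rgs5 -0.39 ± 0.42 and Cspg4 -0.20 ± 0.24. These vascular and stromal lists thus held members on both sides of 0.

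Mesothelial markers had 8 of 13 above 0 and a median of 0.17, with the keratins Krt18 (0.29 ± 0.24) and Krt8 (0.23 ± 0.19, other probe 0.54), Msln (0.49 ± 0.52) and Lrrn4 (0.30 ± 0.52). All 6 erythroid markers were below 0 with a median of -0.31, among them Bpgm (-0.38 ± 0.42), Slc4a1 (-0.50 ± 0.59) and Alas2 (-0.24 ± 0.31). Skeletal muscle markers had 3 of 14 above 0 and -0.14, with Tnnt3 at -0.37 ± 0.22, Atp2a1 at -0.29 ± 0.29, Myh2 at 0.16 ± 0.11 and Myoz1 at 0.17 ± 0.12, and dim other probes for the last pair between -0.06 and -0.02. Schwann and neuronal markers had 3 of 9 and -0.10, with Stmn2 (-0.26 ± 0.19), Ncam1 (-0.28 ± 0.22) and Snap25 (-0.29 ± 0.23). Their other probes disagreed, with -0.08 and 0.03 for Ncam1 and -0.13 and 0.05 for Snap25. Cartilage markers had 2 of 6 and -0.12, with Col9a2 (0.26 ± 0.14), Sox9 (-0.29 ± 0.28), Chad (-0.21 ± 0.28) and Col2a1 (0.08 ± 0.12). Other probes gave 0.17 and -0.28 for Sox9 and -0.04 for Col2a1.

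Over all 42 lists, 14 of 852 distinct members (1.64%) had an unadjusted p under 0.05, 11 higher and 3 lower on day 3, a share under the 2.05% of all genes. The median was above 0 in 19 lists and below 0 in 23, and it was 0.2 or more away from 0 in 9.

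The vehicle comparison was set beside the same days in carbon black hearts, which shares no array with it. In carbon black hearts no gene passed either (smallest adjusted p in limma 0.0829), 1076 genes (5.43%) had an unadjusted p under 0.05 and 55.6% of genes lay above 0. Carbon black day 1 replicate 6 stood apart from its group, with an atrial score of -3.53 and a fibroblast score of -1.92, where the fibroblast scores of the other 5 lay between -0.76 and 0.14. Without it 1 gene passed in carbon black hearts, Pnmt, the adrenaline-forming enzyme (-1.51 ± 0.26, adjusted p in limma 0.0484), named after its value was seen, and 844 had an unadjusted p under 0.05. No gene passed the test of the difference in day difference between carbon black and vehicle hearts (smallest adjusted p in limma 0.9995), and 433 genes (2.19%) had an unadjusted p under 0.05. Of the 405 vehicle genes at an unadjusted p under 0.05, 257 (63.5%) lay on the same side of 0 in carbon black hearts, against 53.1% of all genes.

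Hr, Hsph1 and Rgs4 had the smallest p for that difference among named genes. Hsph1, a heat shock protein of the Hsp110 family, lay between -0.71 and 0.05 on day 3 and between -1.93 and -0.94 on day 1 in carbon black hearts, a difference of 1.08. In vehicle hearts it lay between -1.55 and -0.07 on day 3 and between -1.27 and -0.35 on day 1, a difference of 0.05. The difference between the day differences of Hsph1 was 1.04 ± 0.29. The carbon black groups did not overlap for Hsph1, Rgs4 or Hr, and the vehicle groups did. These genes were chosen by p on the same arrays, so the lack of overlap is a description. The share of all genes without overlap in carbon black hearts was not counted.

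Rgs4, which ends signalling of G proteins, differed by 0.93 in carbon black and -0.07 in vehicle hearts. Hr, a nuclear corepressor, differed by 0.60 in carbon black and -0.17 in vehicle hearts. The log2 reference signal of Hr was 7.60 in vehicle day 3 replicate 2, against 6.16 to 6.46 on the other vehicle arrays of these days. In the sample channel the vehicle difference of Hr was 0.08. The differences between the day differences were 1.00 ± 0.30 for Rgs4 and 0.77 ± 0.21 for Hr. Without carbon black day 1 replicate 6 they were 0.83 for Rgs4, 0.74 for Hr and 1.04 for Hsph1. For Slc25a25 the day difference was 0.43 in carbon black and 0.67 in vehicle hearts, and the difference between them was -0.24 ± 0.24.

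The airway median was 0.07 in carbon black and 0.89 in vehicle hearts, and the Bpifa1 difference was 0.08 in carbon black hearts. Lung transcripts were not confined to vehicle hearts. Sftpc was 3.98 in carbon black day 3 replicate 1 and 1.60 in carbon black day 1 replicate 4, against at most 2.87 in vehicle hearts of these days. Its mean in carbon black hearts was 1.13 on day 3 and 0.41 on day 1. List medians further from 0 in carbon black than in vehicle hearts included macrophages (0.50 against -0.04), interferon-responsive genes (0.45 against 0.10), matrix (0.40 against 0.04) and heat shock genes (0.34 against -0.02). Without carbon black day 1 replicate 6 the carbon black medians of these lists were 0.44, 0.48, 0.34 and 0.28. Other carbon black medians rested more on that array. Fibroblasts had 0.60 in carbon black hearts, or 0.37 without it, against -0.04 in vehicle hearts. Fat cells had 0.63, or 0.36 without it, against 0.10 in vehicle hearts. Endothelium had 0.45, or 0.14 without it, against -0.04 in vehicle hearts, and the cytosolic ribosome had 0.24, or 0.15 without it, against -0.02. The atrial median of carbon black hearts was 0.11 with the array and -0.54 without it. No member of these lists passed the adjusted test of the difference, and the medians themselves were not tested.

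**Figure D5:**
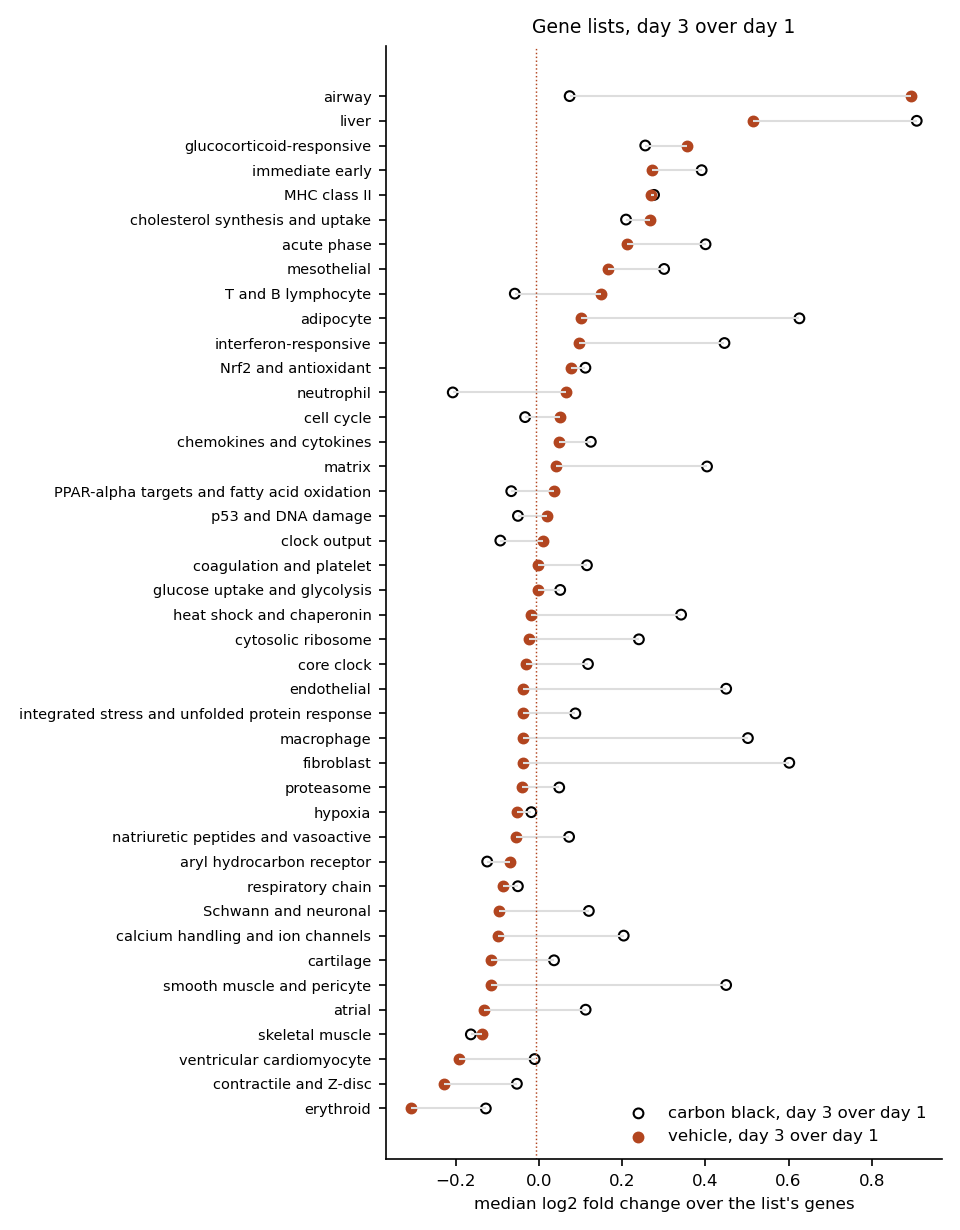
Median difference of each of the 42 gene lists (log2, day 3 minus day 1, horizontal axis) in carbon black and in vehicle hearts, with the lists down the page, open points for carbon black, filled points for vehicle and a dotted line at the median of all genes in vehicle hearts. The airway list lies at 0.07 in carbon black and 0.89 in vehicle hearts, and the fibroblast list at 0.60 and -0.04, where carbon black is at 0.37 without its day 1 replicate 6.

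Both vehicle groups were present on 5 of the scan days named in the file headers and on 3 slides. Each of these scan days held 1 array of each vehicle group, and replicate 3 of either group stood on none of them. The genes below were chosen by p on these same arrays, so their agreement is a description. The share of all genes that agreed in this way was not counted. Within the 5 scan days, Slc25a25 was higher on day 3 in 5 of 5, by 0.43 to 1.52. The 1.52 was that of replicate 2, whose day 3 array had a low reference signal for this gene. The log2 sample signals of that pair were 8.684 on day 3 and 8.004 on day 1. Ces2a, Cdh1 and Tmem150b were also higher in 5 of 5, H1f2, Rcan3 and Mrgpre were lower in 5 of 5, and Bpifa1 and Scgb3a1 were higher in 4 of 5. Gpc1, Zfp119a and Olfr282 were lower in 4 of 5. Some of these differences were close to 0, as for Rcan3 in replicate 6, with -0.07 on day 3 and -0.06 on day 1. The ventricular list median was below 0 in 5 of 5. The airway and immediate early medians were above 0 in 4 of 5, and the liver, glucocorticoid and cholesterol medians in 3 of 5. Replicate 3 of either group enters none of these counts. Its ventricular score was 0.39 on day 3, above every day 1 heart, and -0.25 on day 1. Its Slc25a25 ratio was -0.95 on day 3, the lowest of that day, and -1.17 on day 1.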

How the data were processed

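Heart RNA of 1 mouse per array was measured on 34 Agilent two-colour arrays in 6 groups. The deposited scanner files hold spot intensity from Agilent Feature Extraction 10.1.1.1, with genome build mm8, per the file headers. The authors' deposited value table holds log2 ratios of heart over reference, with column medians from -0.06 to -0.03, and its scale, centring and direction were found by setting it against the scanner values, so none stays unknown.

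The median foreground and background signals went through normexp correction (offset 50), then loess within each array, with limma 3.58.1 under R 4.3.3 (tables read by data.table, version 1.17.8). Figures were drawn by matplotlib 3.10.9 in python 3.11.15. Control spots and outlier spots were left out, spots of a probe were averaged, and a probe was kept when well above background in the sample channel on at least 0.5 of the arrays of 1 group with at most 3 missing values. The probe with the highest mean sample signal stood for a gene. Names came from RefSeq accessions (23374 probes matched, assembly GRCm38.p6, names only). All 34 arrays entered 1 fit with a mean per group (28 residual degrees of freedom), and p-values were adjusted by Benjamini-Hochberg over 19798 genes at 0.05. The fit was tested on simulated data. Bounds and sample-channel values used log2 signals after Aquantile normalisation, and a bound took the mean of the bright group set against the higher of the lowest well-measured signal and the probe's own signal on each dim array.

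Named were the 6 genes with a symbol of smallest p in each direction, up to 4 members of smallest p per list, all members of the clock, liver and airway lists, and 3 genes for the difference between carbon black and vehicle. Some genes that this rule names are not reported here. The members, the 42 lists and the tests were chosen with earlier results of these data known. Alternatives covered background correction, normalisation, signals, the value table, the filter, probes, arrays in the fit, variance prior, slide, scan day, array position, arrays left out and the sample channel alone. Replicate numbers follow accession order and pair nothing. The number of arrays limits the precision.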

Additional observations from a re-analysis of the deposited data

Results flagged for a closer look

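In the genes and marker scores shown by array, 128 groups of 5 or 6 arrays were examined for an array far from the others. These were the vehicle groups of day 3 and day 1, and for Hr, Hsph1 and Rgs4 also the carbon black groups. There were 16 such cases, all in vehicle groups. Chance finds about 1 in 20 groups, and the genes share arrays, so the values below are descriptions.

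On day 3, replicate 1 stood apart for Sftpc at 2.87 (others -0.06 to 0.05), for Chil3 at 2.08 (others -2.67 to -1.44) and for Manf at -2.05 (others -1.30 to -1.11). Replicate 2 stood apart for Hr at -0.61 (others 0.37 to 0.68), where the reference signal was high and the sample signal was not low. Replicate 4 had an atrial score of -2.90 (others -0.70 to 0.21). Replicate 5 stood apart for Ces2a at 1.43 (others 0.13 to 0.42) and for Myl2 at 1.88 (others 4.26 to 5.31), and replicate 6 for Ltf at 4.24 (others -0.05 to 1.14).

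On day 1, replicate 1 stood apart for Sqle at -3.09 (others -3.80 to -3.56). Replicate 2 stood apart for Olfr282 at 0.44 (others 0.08 to 0.20), Col4a2 at 1.39 (others 0.53 to 0.76), Alb at 1.92 (others 3.81 to 4.61) and the atrial score at -2.96 (others -0.37 to 0.43). Replicate 3 stood apart for Myl2 at 4.54 (others 5.23 to 5.57) and Cxcl9 at 0.45 (others 1.07 to 1.39), and replicate 4 for Cblc at 0.032 (others -0.14 to -0.09). The Myl2 sample signal of replicate 3 was not low, with 16.12 against 14.08 to 18.41 in the other day 1 hearts.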

How the results depend on the processing

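The count of genes past the adjusted threshold was 0 in all 30 alternatives, for the vehicle comparison and for the difference between carbon black and vehicle. Genes at an unadjusted p under 0.05 numbered 126 (median centring) to 1190 (no filter on dim probes) for the vehicle comparison, and 142 to 998, at the same settings, for the difference, with 760 without day 3 replicate 3, 889 without day 1 replicate 5 163 with the sample channel alone and 196 for genes well above background on all arrays. The smallest adjusted p in limma over the alternatives was 0.23, without day 3 replicate 3, and it was 0.29 without day 3 replicate 4. Other counts more than 1.5 times from 405 were 926 without day 3 replicate 3, 696 without replicate 2, 608 without replicate 4 and 269 without replicate 6, 922 without day 1 replicate 5, 720 with Agilent processed signals, 611 with scan day as a block, 173 with the 12 arrays alone and 134 with genes well above background on all arrays. The slide as a random block had a consensus correlation of 0.0534. None of the 12 named genes of smallest p changed side of 0, with 8 of them too dim for the strictest filter. Slc25a25 ran from 0.47 to 0.86, Bpifa1 from 0.10 to 3.04 and H1f2 from -0.48 to -0.31. Of the 42 list medians, 3 kept their side of 0 under all 30 alternatives, which were the glucocorticoid-responsive, interferon-responsive and integrated stress lists. The alternatives without day 3 replicates 1, 5 and 6, without carbon black day 1 replicate 6, and with the sample channel alone were chosen after seeing the data. No paired analysis was possible because the labels give the groups no shared replicate numbers, while scan day and slide, which hold both groups in part, were fitted as blocks (611 and 464 genes at an unadjusted p under 0.05, none past the threshold). Weak signal limits Bpifa1, Reg3g, Sftpc, Cdh1 and Ltf, which were not well above background on any day 1 array. It also limits other genes shown by array. Log2 sample signals were 6.2 to 7.2 for Tmem150b, 6.0 to 7.0 for Zfp119a, 6.2 to 7.0 for Cblc and 6.0 to 7.9 for Ces2a. They were 6.8 to 7.8 for Atp6v1g2.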
